A study of Mus musculus with 12 samples.

Results

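The suppressor of cytokine signalling (SOCS) family was followed here as 8 mouse genes, Cish and Socs1 to Socs7. Members were the spots of a 2-colour array whose single gene symbol is one of these names, which gave 9 spots for the 8 genes, Socs6 having 2, among 22138 spots that are not controls. The samples come from a study of the nuclear growth hormone receptor. They carry a receptor form named WT or NLS, usual abbreviations of wild type and nuclear localization signal that the labels do not spell out, and a 0 or a 1 before GH (growth hormone). The 12 arrays fall into 0GH and 1GH groups of each form, with 3 samples a group under the letters b, c and d. Every sample, the 0GH ones included, is listed with human growth hormone at 100 ng/ml, and every title has a 10 after the receptor name that the labels do not explain. They describe the experiment as a time course but give no unit for the 0 and the 1, no cell type, no vector or promoter for the receptor, and no statement of whether the letters are separate cultures. The p-values therefore measure the spread between these samples only, which may be technical.

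Growth hormone binds its receptor, a cytokine receptor without a kinase of its own, and activates the kinase JAK2, which phosphorylates the receptor and the transcription factor STAT5. Several genes of the SOCS family are classical targets of STAT factors, and their proteins shut the pathway down again. Each protein of the family has an SH2 domain that recognises phosphotyrosine and a SOCS box that recruits elongins and a cullin ubiquitin ligase. Cish and Socs2 are the members best known as growth hormone and STAT5 targets, and mice without Socs2 grow large.

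Values are log2 ratios of the Cy3-labelled sample to a Cy5-labelled reference of embryonic RNA, centred so that 0 is the median of the features with a value on all 12 arrays. The direction is likely and not stated: of 39 measured genes of embryonic tissues, 36 lay on the reference side under this reading, and the other reading would turn every sign below. Each array carries 23040 spots, of which 15939 to 19700 hold a value, and 7.85% to 19.5% of the blank spots hold one too, so a value alone does not show a transcript. Of 8 measured B lymphoid markers 6 lay above 0, with means from -3.39 to 3.60, the highest for Cd79b of the B cell receptor. So did 2 of 5 myeloid markers, led by Prtn3 at 3.50, and 3 of 6 erythroid and megakaryocyte markers. Among mast cell and basophil markers it was 2 of 5, and among T lymphoid markers 2 of 5. All 6 fibroblast, 5 hepatocyte and 4 epithelial markers lay below 0. These last lists say little on their own, since all but Thy1, Cdh1 and Epcam belong to the list from which the direction was read. In bulk RNA, fewer cells of a type and less RNA per cell cannot be told apart.

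Sequence around the starts of Cish, Socs1 and Socs3 held motifs of factors through which members of the family are known to answer cytokines. That of Socs4 held neither motif searched. RefSeq windows for GRCm38.p6, of 250 bases before to 50 bases after a gene's start, were at hand for Cish, Socs1, Socs3 and Socs4, and not for Socs2, Socs5, Socs6 and Socs7. For Socs3 the start used lies inside the gene model, which reaches further upstream. The STAT motif TTCNNNGAA, which reads the same on both strands, matched 2 times in Cish and 1 time in Socs3, and 8.3% of all 32851 windows hold it. No match was found for it in the windows of Socs1 and Socs4. The interferon regulatory factor motif, GAAA followed after 2 bases of any kind by a second GAAA, searched on both strands and chosen with these windows in view, matched only in Socs1 among the 4 windows, in 2 overlapping copies, and 3.44% of all windows hold it. The stretches below are shown because Cish is the family's reference STAT5 target and Socs1 the member with the largest fitted difference once the spots of a gene are averaged. Capitals mark the matched motifs, at bases 1 to 9 and 12 to 20 from the start for Cish, -154 to -146 for Socs3, and -83 to -74 and -77 to -68 for Socs1.
Cish, chr9:107296654-107296683, plus strand: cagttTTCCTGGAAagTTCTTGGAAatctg
Socs3, chr11:117969487-117969546, minus strand: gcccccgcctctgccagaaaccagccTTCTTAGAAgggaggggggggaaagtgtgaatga
Socs1, chr16:10785587-10785646, minus strand: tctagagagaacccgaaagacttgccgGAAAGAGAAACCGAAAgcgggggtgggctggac
A match describes these letters and is not evidence of binding in these samples.

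Cish (chromosome 9, 107296659 to 107302784 in GRCm38.p6), whose protein CIS occupies the receptor phosphotyrosines that STAT5 docks on, lay above the array median on all 12 arrays. With the WT receptor its centred log2 ratio at 0GH was 0.62 for letter b, 0.08 for c and 2.95 for d, and at 1GH it was 1.92, 2.51 and 0.70 in the same order. The letters disagreed: 1GH was above 0GH by 1.30 in b and 2.44 in c, and in d the difference was -2.25. With the NLS receptor Cish was at 2.54, 2.11 and 1.75 at 0GH, and at 2.47, 2.21 and 2.13 at 1GH. The 6 NLS arrays lay between 1.75 and 2.54, a narrower range than the 0.08 to 2.95 of the 6 WT arrays, and the NLS letters differed by -0.07, 0.10 and 0.38 between 1GH and 0GH. The fitted difference of 1GH minus 0GH was 0.49 (SE 0.75, n = 3 and 3) in WT, with a 95% interval of -1.17 to 2.16, and 0.14 (SE 0.75) in NLS, with an interval of -1.53 to 1.81 (limma adjusted p = 1 for each). The fit pools the spread of all groups, so the NLS interval also reflects the wider WT scatter. Without letter d the WT difference was 1.87 and without letter c it was -0.48, so its sign rests on which letters are used. The group mean was lowest with WT, at 1.22 ± 1.53 (SD, n = 3) for 0GH and 1.71 ± 0.92 for 1GH. It was highest with NLS, at 2.13 ± 0.40 for 0GH and 2.27 ± 0.18 for 1GH, and no neighbours in this order differed beyond their SD.

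**Figure D1:**
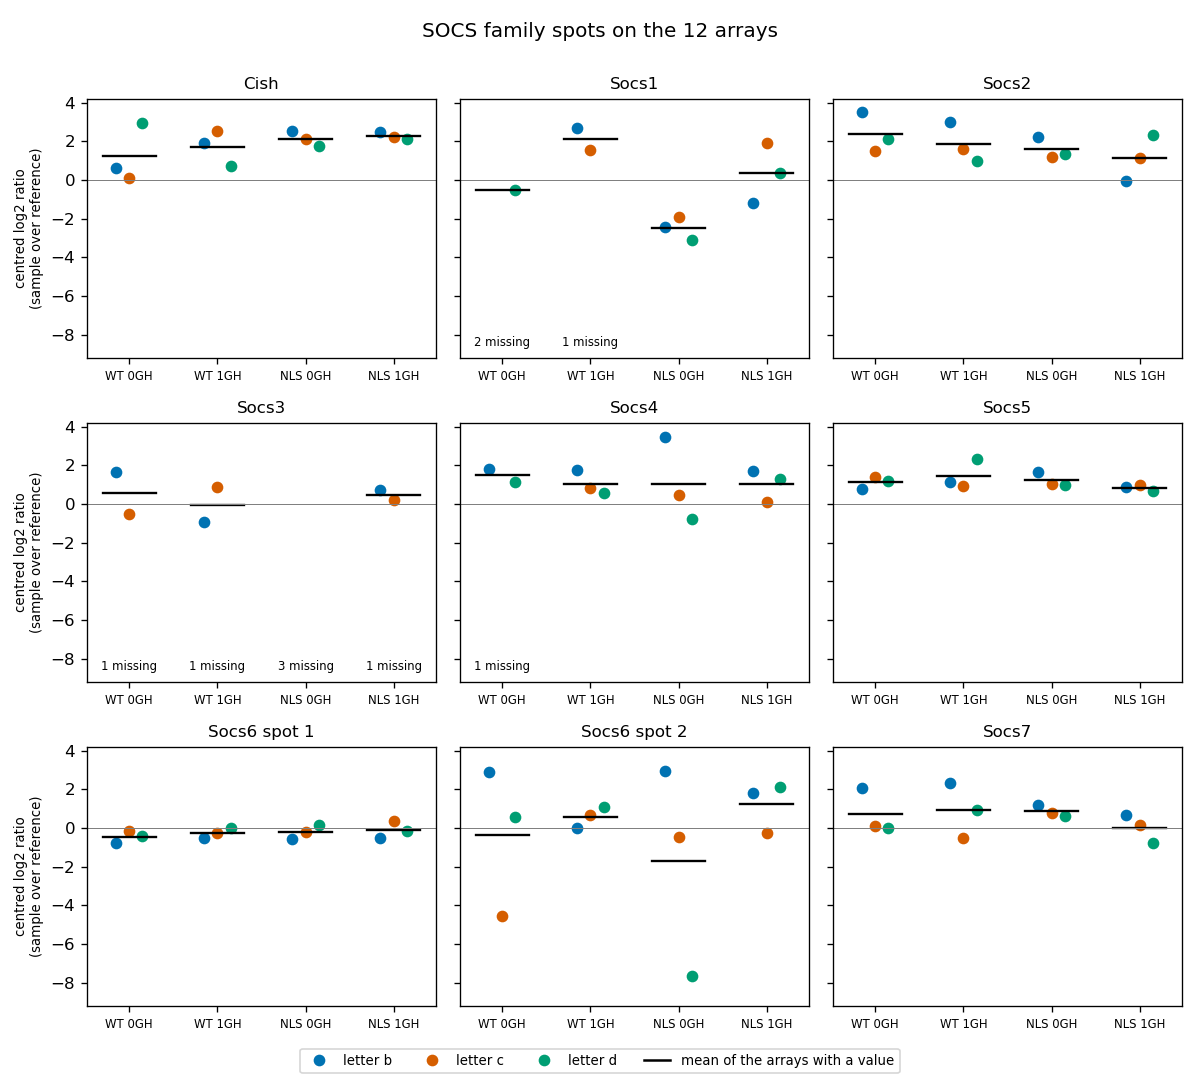
Centred log2 ratio (vertical axis) of each SOCS family spot in the 4 groups (horizontal axis); points are arrays coloured by letter, bars are means of the arrays with a value, and the number of missing arrays is written in. Cish is tight in the NLS groups, Socs1 lies lowest in NLS 0GH (-3.09 to -1.89), and Socs6 spot 2 has single arrays at -4.54 and -7.64.

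Socs2 (chromosome 10, 95383903 to 95417321), a regulator of growth that targets the growth hormone receptor itself for ubiquitination, was not higher at 1GH beyond its spread with either receptor form. With WT its centred log2 ratio was 3.53, 1.50 and 2.13 at 0GH (letters b, c and d) and 3.0, 1.58 and 0.96 at 1GH. With NLS it was 2.25, 1.18 and 1.35 at 0GH and -0.03, 1.16 and 2.33 at 1GH. The groups overlapped in both forms, and Socs2 lay above the array median on 11 of 12 arrays, the exception being NLS 1GH b. The means with WT were 2.39 ± 1.04 at 0GH and 1.85 ± 1.05 at 1GH. Those with NLS were lower, at 1.59 ± 0.58 and 1.15 ± 1.18 (SD, n = 3 each), and no neighbours in this order differed beyond their SD. The fitted 1GH minus 0GH was -0.54 (SE 0.79) in WT and -0.44 (SE 0.79) in NLS, with 95% intervals of -2.31 to 1.23 and -2.21 to 1.33 (limma adjusted p = 1 for each). Letter b carried most of the NLS value, with a difference of -2.28 against -0.02 in c and 0.98 in d, and without letter b the fitted value was 0.48.

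Socs1 (chromosome 16, 10783808 to 10785536), which blocks JAK kinases directly and is best known for restraining interferon signalling, had the largest fitted 1GH minus 0GH of the family when the spots of a gene are averaged, while spot 2 of Socs6 alone gave a larger and less precise one. With NLS its centred log2 ratio at 0GH was -2.45 for b, -1.89 for c and -3.09 for d, and at 1GH it was -1.18, 1.90 and 0.34. All 3 NLS 1GH arrays lay above all 3 NLS 0GH arrays, and the letters gave differences of 1.28, 3.79 and 3.43. Across features with all 6 NLS values, 4.3% had every 1GH array above every 0GH array, 13.6% were higher in all 3 letters, and 2.17% had a mean difference as high as that of Socs1 or higher. Socs1 had too few WT values for the fit used for the other genes and was tested with features that have at least 2 values in each group compared, a filter chosen after the data were seen. There it was 2.83 higher at 1GH (SE 0.87, 95% interval 0.78 to 4.89), a 7.12-fold difference, with an unadjusted p of 0.0138 and an adjusted p of 1 in limma, so it did not pass the threshold of 0.05. An unadjusted p under 0.05 with a higher value at 1GH was found for 2.65% of the 15915 features of that fit, and in either direction for 3.56%. Without letter c or d the difference was 2.35 or 2.53 and the unadjusted limma p 0.0617 or 0.0956.

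Marker levels also differed between these NLS groups. From 0GH to 1GH the median went from -3.24 to -1.73 for the 4 epithelial markers, from -4.48 to -3.44 for the 6 fibroblast markers, from -4.96 to -4.88 for the 5 hepatocyte markers and from -1.38 to -0.54 for 5 of 7 myeloid markers. It went from 0.42 to 1.28 for 8 of 10 B lymphoid, from -0.68 to 0.01 for 5 of 6 T lymphoid and from -0.73 to -0.39 for 5 of 6 mast cell and basophil markers, and from -0.51 to -0.98 for 6 of 8 erythroid and megakaryocyte markers. These differences were not fitted, and their part in the result for Socs1 was not tested.

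In WT samples Socs1 had a value on 3 of 6 arrays, so no letter offered a pair. It was at -0.51 in WT 0GH d, at 2.71 in WT 1GH b and at 1.56 in WT 1GH c. Both 1GH arrays were above the single 0GH array. They are of other letters than it, so GH number and letter cannot be told apart there. A fit that admits groups with 1 value, and so assumes that the lone WT 0GH array varies like the other groups, put 1GH minus 0GH at 2.65 in WT (SE 1.32, 95% interval -0.47 to 5.76, limma unadjusted p = 0.0844, adjusted p = 1), beside an unadjusted p under 0.05 for 3.58% of features. The difference of that value from the NLS one was 0.19, with an interval of -3.56 to 3.93, so neither a like nor an unlike response of the forms is shown (3.89% of features had an unadjusted p under 0.05 for this term). Averaged over both forms it was 2.74 (SE 0.79, limma unadjusted p = 0.0105, adjusted p = 1), beside an unadjusted p under 0.05 for 3.93% of the 17319 features of that fit. That average and the difference between the forms rest on WT 0GH d for their only WT 0GH value. They carry the same assumption and, in their WT part, the same mixing of GH number with letter.

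Socs3 (chromosome 11, 117966079 to 117970336), which binds cytokine receptors such as gp130 and inhibits the JAK kinases bound there, could hardly be followed. It had a value on 6 of 12 arrays, and 18.9% of spots had as few or fewer. With WT its centred log2 ratio for letters b and c was 1.68 and -0.53 at 0GH and -0.95 and 0.89 at 1GH. With NLS it was 0.73 and 0.23 at 1GH. No value was given in letter d or in any NLS 0GH array, so 1GH and 0GH cannot be compared with the NLS receptor. The WT letters went opposite ways, -2.63 in b and 1.42 in c, and the fitted WT difference was -0.61 (SE 1.10, 95% interval -3.44 to 2.23, limma adjusted p = 1) with the same filter as for Socs1, where 3.11% of 16188 features had an unadjusted p under 0.05.

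**Figure D2:**
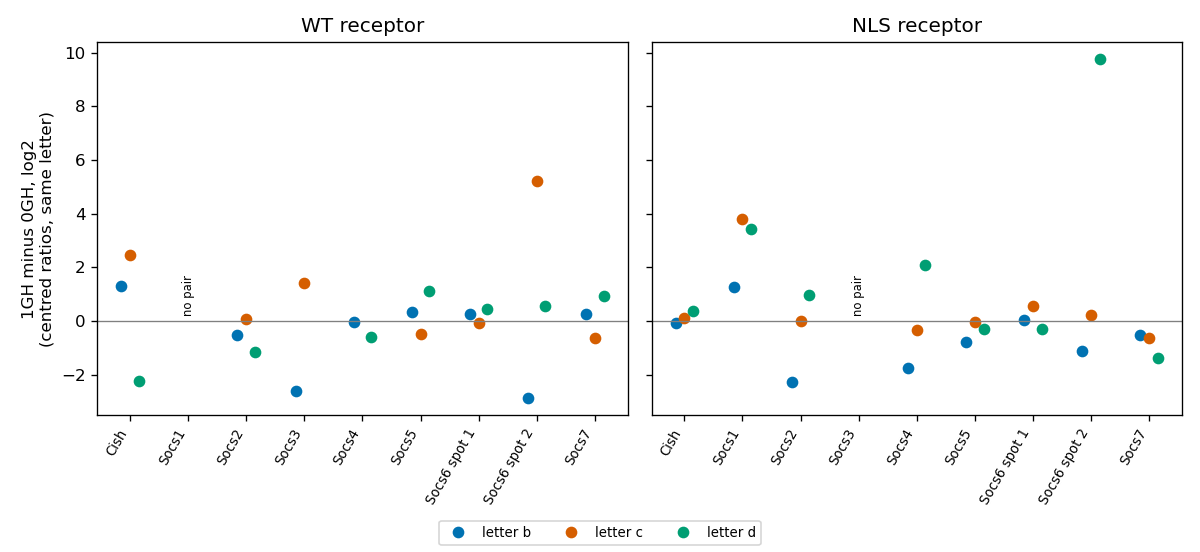
Difference of the centred log2 ratio between 1GH and 0GH arrays of the same letter (vertical axis) for each SOCS family spot (horizontal axis), with the WT receptor on the left and the NLS receptor on the right. Socs1 is above 0 in all 3 NLS letters (1.28 to 3.79), Cish splits in WT, and the widest points, 5.23 and 9.75, belong to Socs6 spot 2.

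Socs4 and Socs5 form a structural pair with long N-terminal regions and are linked to signalling of the epidermal growth factor receptor. Socs5 was the steadiest gene of the family, above the array median on all 12 arrays, with a pooled SD within groups of 0.47 against a median of 1.27 over all features tested. With WT its centred log2 ratio was 0.80, 1.42 and 1.21 at 0GH and 1.13, 0.92 and 2.34 at 1GH. With NLS it was 1.66, 1.03 and 0.96 at 0GH and 0.88, 0.99 and 0.66 at 1GH. All groups overlapped, the highest array being WT 1GH d. Its differences were 0.32 (SE 0.48) in WT and -0.38 (SE 0.48) in NLS, and the 95% intervals of -0.74 to 1.38 and -1.44 to 0.68 are the narrowest among the family's genes with their spots averaged (limma adjusted p = 1 for each). In NLS it was lower at 1GH in all 3 letters, by amounts from -0.78 to -0.05, as were 12.4% of features with all 6 values. The difference between the forms was -0.70, with an interval of -2.20 to 0.80, or -0.12 without centring. The WT value was -0.12 without WT 1GH d.

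Socs4 had 11 values, WT 0GH c being missing. It was at 1.79 and 1.16 in WT 0GH (b and d), and at 1.74, 0.82 and 0.57 in WT 1GH. In the NLS arrays the letters spread more widely, from 3.47 in b to 0.46 in c and -0.80 in d at 0GH, against 1.73, 0.11 and 1.29 at 1GH. Letter b was the highest array of every group. Its fitted differences were -0.43 (SE 1.12) in WT and 0.00 (SE 1.01) in NLS (limma adjusted p = 1 for each), the latter a balance of letter differences of -1.74, -0.35 and 2.10, which was -1.05 without letter d and 1.21 without NLS 0GH b. Without centring the WT value was -1.10 (SE 1.42).

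Socs6, linked to insulin and Kit receptor signalling, was measured by 2 spots whose values differed. Spot 1 lay close to the array median throughout, between -0.78 and 0.36, with a fitted 1GH minus 0GH of 0.20 (SE 0.42) in WT and 0.10 (SE 0.42) in NLS. Spot 2 ran from 2.89 and 2.94 in letter b of WT 0GH and NLS 0GH to -4.54 in WT 0GH c and -7.64 in NLS 0GH d. At 1GH it stayed between -0.24 and 2.11. Its fitted 1GH minus 0GH was 0.96 (SE 2.49) in WT and 2.94 (SE 2.49, 95% interval -2.60 to 8.49) in NLS, with a limma adjusted p of 1 for each. The SD over the 12 arrays was 0.33 for spot 1 and 3.10 for spot 2, the gap between them reached 7.78, and over the arrays, which share their letters, their Pearson correlation was -0.55.

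The gene value averages both spots, so its size comes from spot 2. The mean of the spots differed by 0.58 (SE 1.19) between 1GH and 0GH in WT and by 1.52 (SE 1.19) in NLS, with 95% intervals of -2.08 to 3.24 and -1.14 to 4.18 (limma adjusted p = 1 for each). Without letter d the NLS value was -0.08, since the single array NLS 0GH d gives spot 2 a letter difference of 9.75. The WT value was -0.42 without letter c. No value of spot 2 lay beyond 8.36, the log2 ratio a 16-bit scanner can give over the authors' floor of 200. Values of all spots ran from -18.18 to 14.58, so that limit does not bound them. Staying under it does not show that the low values of spot 2 are sound.

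**Figure D3:**
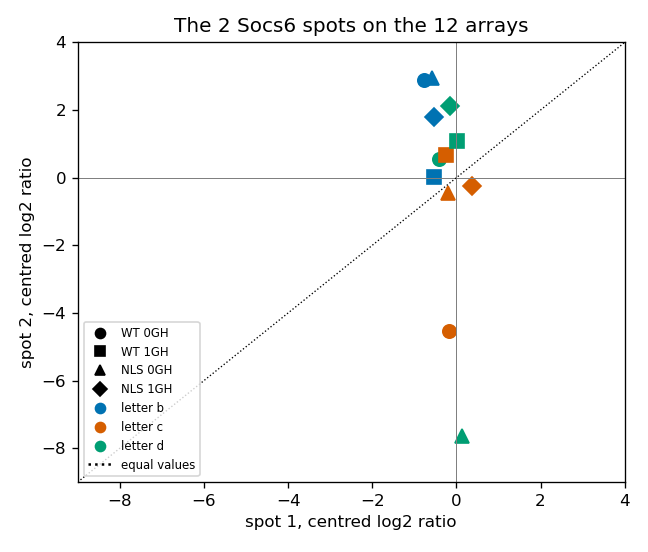
Centred log2 ratio of Socs6 spot 1 (horizontal axis) against spot 2 (vertical axis) on the 12 arrays, with symbols for the groups, colours for the letters and a dotted line for equal values. Spot 1 covers -0.78 to 0.36 while spot 2 covers -7.64 to 2.94.

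Socs7, which binds adaptor and insulin receptor substrate proteins, completes the family. With WT it was at 2.09, 0.09 and 0.00 at 0GH and at 2.35, -0.54 and 0.93 at 1GH. With NLS it was at 1.20, 0.77 and 0.60 at 0GH and at 0.66, 0.14 and -0.79 at 1GH. Letter b was the highest array of each group. With NLS, 1GH was lower in all 3 letters, with differences of -0.54, -0.63 and -1.38, although NLS 0GH and NLS 1GH overlapped. The fitted values were 0.19 (SE 0.81) in WT and -0.85 (SE 0.81, 95% interval -2.66 to 0.96) in NLS (limma adjusted p = 1 for each), and the difference between the forms was -1.04, with an interval of -3.60 to 1.52, or -0.46 without centring. The WT value was -0.08 without centring and -0.53 without WT 1GH b.

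Across the family, 0 of the 6 genes that entered the fit passed the adjusted threshold for 1GH against 0GH in either form, and 0 had an unadjusted p under 0.05 (limma). The same fit called 0 of 15115 features in each form (0%), and an unadjusted p under 0.05 was found for 2.92% in WT and 3.4% in NLS. The median difference of these 6 genes was 0.25 in WT and -0.19 in NLS, beside 0.01 and 0.03 over all features. Above 0 were 4 of 6 genes in WT and 3 of 6 in NLS, beside 50.5% and 51.5% of features. In WT, 0 of the 5 genes with 3 letter pairs kept 1 sign in all letters and 0 had groups apart, against 23.8% and 5.83% of features. In NLS, 3 of 7 did, Socs1 upwards and Socs5 and Socs7 downwards, against 26%, and the groups were apart for Socs1 alone of the 7, against 7.67% of features. For the difference between the forms in their 1GH minus 0GH, 0 of the 6 genes had an unadjusted p under 0.05, against 3.02% of features (limma), and 0 of 15115 features passed after adjustment.

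**Figure D4:**
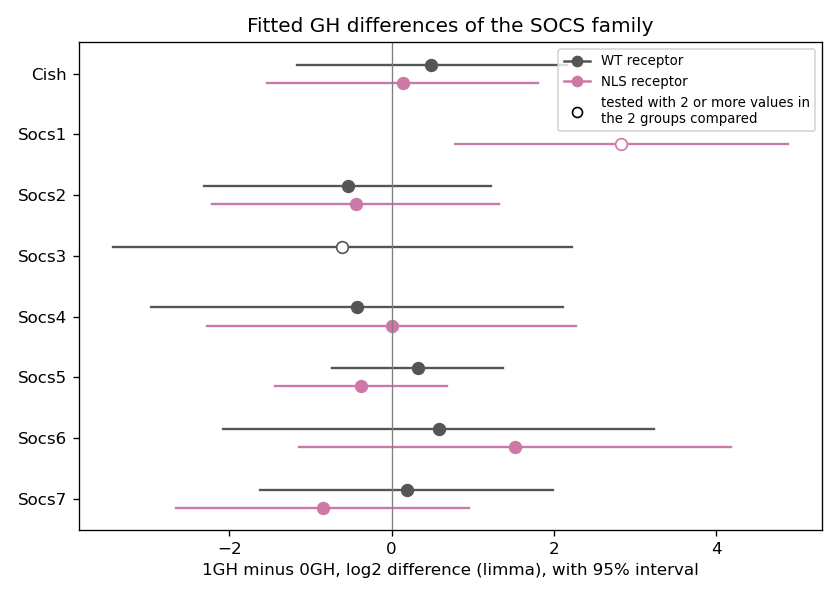
Fitted difference of 1GH minus 0GH in log2 units (horizontal axis) for each SOCS family gene (vertical axis), with 95% intervals, in WT and NLS; open points are the genes tested with the filter on the groups compared. The interval of Socs1 in NLS (0.78 to 4.89) is the one that leaves out 0, before adjustment for the number of features.

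Pairing the arrays by letter over both forms gives 6 pairs for the 5 genes with all values, enough for an exact two-sided sign-flip test, whose smallest possible p is 0.0312. Cish was higher at 1GH in 4 of 6 pairs, by 0.32 on average (exact p = 0.562, adjusted over the 5 genes 0.703). Socs2 was higher in 2 of 6 (mean -0.49, exact p = 0.344, adjusted 0.625), Socs7 in 2 of 6 (mean -0.33, exact p = 0.375, adjusted 0.625), Socs6 in 4 of 6 (mean 1.05, exact p = 0.375, adjusted 0.625) and Socs5 in 2 of 6 (mean -0.03, exact p = 0.906). A single gene at the smallest possible p would not pass after adjustment over 5 genes, so these adjusted values say little. With 3 pairs in a single form, an exact p cannot go below 0.25.

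The receptor forms were compared over the same 12 arrays. Cish was higher in NLS than in WT by 0.74 (SE 0.53, 95% interval -0.44 to 1.92, limma adjusted p = 0.906), in 4 of 6 pairs matched on letter and GH number. Socs2 lay the other way, at -0.74 (SE 0.56, interval -1.99 to 0.51, limma adjusted p = 0.906), lower in NLS in 5 of 6 pairs. The differences of Socs4, Socs5, Socs6 and Socs7 ran from -0.39 to -0.08, and 0 of the 6 genes passed, as did 0 of 15115 features (0%), while 5.66% of features and 0 of the 6 genes had an unadjusted p under 0.05. Socs1, in the fit that admits groups with 1 value, was at -1.87 (SE 0.79, limma unadjusted p = 0.0501, adjusted p = 0.817), in a fit where 6.08% of features had an unadjusted p under 0.05. Beside these differences, the median of the erythroid and megakaryocyte markers was 0.76 at 0GH and 0.50 at 1GH with WT, and -0.51 and -0.98 with NLS (6 of 8 listed genes measured, 3 above 0). That of the B lymphoid markers was 1.49 and 1.34 with WT and 0.42 and 1.28 with NLS. For T lymphoid markers it was 0.15 and -0.55, against -0.68 and 0.01 with NLS. Mast cell and basophil markers had 0.14 and -0.50, against -0.73 and -0.39. Epithelial markers had -1.94 and -1.34, against -3.24 and -1.73. Myeloid markers had -1.23 and -0.76, against -1.38 and -0.54. Fibroblast markers had -4.45 and -3.97, against -4.48 and -3.44, and hepatocyte markers -5.13 and -4.91, against -4.96 and -4.88. The part of these markers in the result was not tested.

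The tested genes that work with the family at the receptor did not pass the threshold either. Of 93 listed receptors, kinases, STAT factors, adaptors, other inhibitors, SOCS box partners and STAT5 targets, 71 entered the fit. Among them 0 passed for 1GH against 0GH in WT, in NLS or on average. The list has 7 STAT factors, 5 of them on the array, and only Stat2, Stat3 and Stat4 entered. Stat5a and Stat5b were therefore not tested, and neither were Cul5 and Prlr. At an unadjusted limma p under 0.05, 1 of the 71 was higher and 4 lower in WT. Over all 15115 features 177 were higher and 265 lower there, 2.92% in either direction. In NLS 2 of the 71 were higher and 0 lower, beside 379 and 135 features (3.4% in either direction). On average 1 was higher and 4 lower, beside 298 and 201 features (3.3%). Ghr, the receptor gene, differed by -0.20 (SE 0.87) in WT and 0.08 (SE 0.87) in NLS.

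Some of these genes act next to SOCS proteins. Elob is an elongin of the ligase that the SOCS box recruits. With WT it was at 3.41, -0.12 and -0.73 at 0GH and at -0.38, -2.44 and -1.70 at 1GH. It was lower in each letter, although the groups overlapped. Its difference was -2.36 (SE 0.98, limma unadjusted p = 0.0373, adjusted p = 1) in WT and -0.15 (SE 0.98) in NLS. Ptpn6, the phosphatase SHP-1 that also dampens cytokine receptors, was at 1.22, 0.99 and 2.91 at 0GH and at 3.16, 4.45 and 2.84 at 1GH with WT, higher in letters b and c. It was 1.77 higher in WT (SE 0.72, limma unadjusted p = 0.0343, adjusted p = 1) and at -0.32 (SE 0.72) in NLS.

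Csf2ra, a chain of the GM-CSF receptor, differed by -2.37 (SE 1.04) in WT and 2.22 (SE 0.93) in NLS, with limma unadjusted p of 0.0495 and 0.0415. The adaptors Irs1 and Gab2 averaged -4.28 (SE 1.38) and -1.97 (SE 0.75) over both forms. Irs1, with values on 8 arrays, was at -4.80 (SE 1.96) in WT. There only letter d held a pair, 0.09 at 0GH and -0.73 at 1GH. The other WT values were 4.27 in 0GH b and -4.52 in 1GH c. Among other SOCS box proteins, Spsb1 was at -3.96 (SE 1.72) in WT and -2.60 (SE 1.11) on average. Its WT values were also paired in letter d only, at 1.56 for 0GH and -2.36 for 1GH. Asb4 was at 2.16 (SE 0.89) in NLS, and Asb2 and Asb1 were at 2.29 (SE 0.91) and -1.01 (SE 0.43) on average. Each of these fitted differences had an unadjusted p under 0.05 and an adjusted p of 1 in limma, so none is called.

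As a description of arrays that share letters and a reference, the Pearson correlation of Cish was -0.14 with Socs2, -0.34 with Socs5, 0.29 with Socs6 and -0.28 with Socs7, and that of Socs2 with Socs7, 0.42, was the highest among the 5 genes with all values. Of 8707 named genes with all values, those most like Cish were Nufip2 (0.92), Tcea1 (0.85) and Kazn (0.84). Those most like Socs2 were Hdac5 (0.94), Txndc17 (0.91) and Asb12 (0.90), the last itself a SOCS box protein. Socs5 went with Lce1m (0.90), Coro7 (0.86) and Gss (0.84), Socs6 with Vmn2r122 (0.93), Ptprtos (0.91) and Dbndd2 (0.91), and Socs7 with Tex264 (0.94), Lars (0.90) and Gna13 (0.90). The likeness of Socs6 is that of spot 2, which sets the mean of its spots.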

How the data were processed

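The deposited values, read as log2 ratios from their range, were made by the authors with a Lowess curve through 50% of the data at each point and 200 in place of any lower control channel, per the series' design text. Log base, numerator and background method: not given in the sources used here. After the sign was turned the values ran from -18.18 to 14.58. Of 23040 spots, 902 controls were left out. GEO's annotation gave 16720 of the others 1 gene symbol, 142 several and the rest none, and 16249 matched RefSeq by Entrez identifier with 0 symbols updated. Values were multiplied by -1 after the check on embryonic genes, spots of a gene were averaged, and each array was centred on the median of 10762 features complete on all arrays, since those medians ran from -0.52 to 1.46. Features with at least 2 values in each group (15115) were tested with limma 3.58.1 in R 4.3.3, all 12 arrays in 1 fit, two-sided, Benjamini-Hochberg over all features, threshold 0.05. SE and intervals come from that fit. The fit was tested on simulated data with independent noise smaller than each feature's SD and no letter effects. That test therefore does not show how the fit performs with the spread of these data. Missing values were left missing. The 3 samples a group limit the precision.

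Samples of a letter share the red dye incorporation in the labels, which was read as a shared labelling of the reference. They were paired in the exact test and blocked in an alternative fit. The main fit, with its SE, intervals and p-values, did not use the letters. Deviations from group means correlated at 0.0433 to 0.263 across features between samples of a letter, and at -0.187 to 0.066 between letters. The deviations of a group sum to 0 over its letters, which ties these ranges together, so the second is no independent contrast. Named genes were all members, pathway genes with an unadjusted p under 0.05 for GH, Ghr, and the 3 genes most correlated with each complete member. Members and lists were chosen with earlier results of these data known. Motifs were searched in RefSeq promoter windows of GRCm38.p6. No whole genome and no protein sequences were used. Alternatives were the letter as a block, no centring, quantile normalization, other filters on missing values, spots kept apart, very large ratios left out, a robust prior with a trend, the green dye incorporation added to the model, and leaving out letters or arrays. The filter that let Socs1 and Socs3 be tested was added after the data were seen.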

Additional observations from a re-analysis of the deposited data

How the results depend on the processing

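No SOCS family gene passed the adjusted threshold under any setting run, the lowest adjusted p being 0.756 (limma, 608 fits of a member), and with the letter as a replicate block the count of features called stayed at 0 in all 5 comparisons and no call changed. With the block, 1GH minus 0GH was 2.83 for Socs1 in NLS (limma unadjusted p = 0.027, adjusted p = 0.9) and 0.49 for Cish in WT. Keeping spots apart called 1 feature for NLS minus WT, Ms4a6d, and leaving out 1 array called 0 to 1, the latter Car12 without WT 0GH d, both named after their values were seen. Values near 0 changed sign: without centring, Socs7 in WT was -0.08 and Socs6 in NLS minus WT 0.03 (0.03 also in the exact test). With quantile normalization the averaged GH difference was 0.07 for Socs4 and 0.12 for Socs5. With green dye incorporation as a covariate it was 0.00 for Socs5, and NLS minus WT was 0.31 for Socs4 and 0.39 for Socs6. Spot 1 of Socs6 alone gave 0.20 for NLS minus WT. The difference between the forms in 1GH minus 0GH also changed sign for some genes. For Cish it was -0.36 in the main fit, 0.22 without centring and 0.37 with the green dye covariate. For Socs2 it was 0.10 in the main fit and -0.03 with that covariate. For Socs6 it was 0.94, and -0.10 with spot 1 alone.

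Leaving out a letter or an array, the WT difference of 1GH and 0GH ran from -0.48 to 1.87 for Cish, -1.12 to 0.03 for Socs2, -0.12 to 0.73 for Socs5, -0.42 to 1.53 for Socs6 and -0.53 to 0.91 for Socs7. In NLS it ran from -0.05 to 0.34 for Cish, -1.15 to 0.48 for Socs2, -1.05 to 1.21 for Socs4 and -0.08 to 2.60 for Socs6. The average over forms ran from -0.16 to 0.94 for Cish, -0.78 to 0.39 for Socs4, -0.25 to 0.11 for Socs5 and -0.69 to 0.03 for Socs7. NLS minus WT ran from -0.82 to 0.25 for Socs4, -0.56 to 0.07 for Socs5, -0.62 to 0.72 for Socs6 and -0.92 to 0.06 for Socs7. Socs1 in NLS stayed higher at 1GH throughout, from 2.06 to 3.61, and from 2.27 to 3.15 under the other settings. The cause of the other sign changes was not tested.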
